A study of Mus musculus with 34 samples.

Results

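A set of 7 genes was described across 34 mouse livers: A1bg, Akr1b7, Hao2, Prom1, Igdcc4, Abcb1a and Ntrk2. They are 7 of the 35976 gene symbols in the expression table, and they were picked for their change in livers labelled Bcl6 KO against the control livers. That contrast is therefore given as values with no test. Tests were run only where other knockouts were compared with the controls or with each other. The working name of the set, genes derepressed in Bcl6 knockout livers, holds for the values of 5 genes. Abcb1a lay within or next to the control range, and Ntrk2 was lower in the livers labelled Bcl6 KO, so the set is called by its 7 members below.

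The RNA of whole livers was sequenced once the mice had spent 3 months on a Western diet. All mice shared 1 background, C57BL/6 homozygous for both TetO-Cas9 and Rosa-rtTA, in which doxycycline switches on Cas9, and all received an adeno-associated virus (AAV) with a guide RNA. Guides against Bcl6 (5 livers), Irs1 (5), Smyd2 (6), Srebf1 (5) and Tbx3 (7) were set against 6 pooled controls, 4 with a guide to GFP (sgGFP) and 2 with a guide to LacZ (sgLacZ), neither of which is a mouse gene. The age and sex of the mice, the guide positions and the share of cells edited are not known from the labels, and a liver edited this way can hold edited and unedited cells side by side. Cas9, the virus and the diet were common to every group, controls included. The labels number the livers, and each was treated as 1 animal; were any of them repeat samples of an animal, the p-values would measure only technical spread.

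BCL6 is a zinc finger repressor that recruits corepressors such as NCOR1 and BCOR to DNA. In mouse liver it is more abundant in males, where it keeps many female-biased genes low, and its sites often overlap those of STAT5, the factor through which the pulses of growth hormone shape sex-biased liver expression. The 7 genes have unlike products. A1BG is a secreted plasma protein of the immunoglobulin superfamily, and its gene is female-biased in mouse liver. AKR1B7 is an aldo-keto reductase that reduces lipid aldehydes, and HAO2 is a peroxisomal oxidase of long-chain 2-hydroxy acids. Prom1 encodes prominin 1 (CD133), a membrane protein of protrusions that marks bile duct and progenitor cells in liver. Igdcc4 encodes a surface protein of the immunoglobulin superfamily, also called Nope, known from fetal liver. Abcb1a encodes P-glycoprotein, an efflux pump for drugs and lipids, and Ntrk2 encodes TrkB, the receptor of the neurotrophin BDNF.

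These promoters are shown because the highest value outside the livers labelled Bcl6 KO was lowest for A1bg and Akr1b7, while Ntrk2 moved the other way. Each run is the 250 bases before the transcript start in RefSeq (GRCm38.p6), 5′ to 3′ on the gene's strand, and capitals mark a match to the STAT5 motif TTCNNNGAA. A1bg lies at chr15:60921271-60921520 on the minus strand, Akr1b7 at chr6:34412112-34412361 on the plus strand and Ntrk2 at chr13:58806319-58806568 on the plus strand.
A1bg: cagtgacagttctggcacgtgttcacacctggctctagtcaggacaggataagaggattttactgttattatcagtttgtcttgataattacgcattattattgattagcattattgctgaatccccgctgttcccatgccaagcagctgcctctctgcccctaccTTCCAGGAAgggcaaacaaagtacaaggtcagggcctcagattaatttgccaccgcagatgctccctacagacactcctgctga
Akr1b7: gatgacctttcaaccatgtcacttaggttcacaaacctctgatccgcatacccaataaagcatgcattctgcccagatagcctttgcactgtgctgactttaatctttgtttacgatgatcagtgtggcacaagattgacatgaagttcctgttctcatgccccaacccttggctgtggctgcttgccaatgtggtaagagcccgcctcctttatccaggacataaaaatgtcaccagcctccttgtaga
Ntrk2: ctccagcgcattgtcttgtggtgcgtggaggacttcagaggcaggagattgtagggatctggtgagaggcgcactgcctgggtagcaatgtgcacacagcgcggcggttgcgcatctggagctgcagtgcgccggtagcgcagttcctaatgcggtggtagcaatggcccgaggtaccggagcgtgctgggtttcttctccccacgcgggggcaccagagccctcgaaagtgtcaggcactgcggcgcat
The A1bg promoter held TTCCAGGAA at 84 to 76 bases before the start, chr15:60921346-60921354. The same letters match a BCL6 motif, TTCCTNGAA on 1 strand and TTCNAGGAA on the other, which is nested in the STAT5 motif. All 7 members matched RefSeq, with 8 promoters because Prom1 has 2 starts. Of these 8, 1 held the STAT5 motif and 1 the BCL6 motif on either strand, and both are the A1bg match. For Abcb1a the run searched was chr5:8566841-8567090, far from the gene start at 8660077 in the GENCODE M21 annotation. The bases before that second start were not searched. Over all 32817 RefSeq promoters of this length, 7.01% held the STAT5 motif and 1.31% the BCL6 motif. A match is a description of letters, and binding was not measured.

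Levels are in FPKM, fragments scaled by gene length and by the size of the library. The steps of the low values imply a depth of 2110000 to 3130000 counted reads (median 2610000). The mRNA of the targeted gene was not a check of most labels. Bcl6 mRNA was 64.3 ± 20.98 FPKM (SD, n = 5) in livers labelled Bcl6 KO and 67.1 ± 31.7 (n = 6) in controls (limma, adjusted p = 0.98), and Irs1, Smyd2, Srebf1 and Tbx3 mRNA did not pass the test in their own knockouts either (Srebf1 adjusted p = 0.0611). Controls held 1095 to 2177 FPKM of Srebf1 mRNA, 4 livers labelled Srebf1 KO held 499 to 632, and the library labelled Srebf1 KO replicate 1 held 1908. The 10 hepatocyte markers summed to 78612 to 101227 FPKM in controls and 159842 to 219804 in livers labelled Bcl6 KO. Alb, given further below, holds much of these sums. The median log2 change of the 10 markers in Bcl6 KO was 0.57, against -0.07 over all genes. No batch is given in the labels.

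A1bg stood apart most clearly. The livers labelled Bcl6 KO held 939.6, 477, 632, 882 and 522 FPKM, about 2269 to 4690 reads at the implied depth. Outside the Bcl6 group it was at 0 in 28 of 29 livers, all 6 controls included. The exception was Tbx3 KO replicate 4 with 0.20 FPKM, about 1 read. A count of 3 reads corresponds to 0.526 to 0.778 FPKM in those 29 livers, so lower levels would not have been detected. The mean of 691 ± 210 FPKM (SD, n = 5) was at least 965-fold higher than the control livers, taking the highest 3-read value of a control library, 0.716 FPKM, in place of 0. Even the lowest Bcl6 KO liver was at least 667-fold higher. The gene passed the filter on low values (an FPKM of 1 or more in 5 libraries) only through these 5 livers. In GENCODE M21 (GRCm38) A1bg spans chr15:60896859-60923012 on the minus strand. The promoter shown above follows the RefSeq start and lies inside that span, so the annotations differ on the outermost start.

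Akr1b7 showed the same pattern at a much lower level. Its values were 19.6, 11.1, 19.3, 15.8 and 7.79 FPKM in the livers labelled Bcl6 KO, or about 67, 36, 69, 50 and 26 reads. The controls ranged from 0 to 1.81 with a median of 0.926, and the highest liver of any other knockout was Tbx3 KO replicate 7 with 2.30. No liver outside the Bcl6 group reached the lowest value inside it. The means were 14.7 ± 5.19 (n = 5) and 0.939 ± 0.603 FPKM (n = 6), a ratio of 15.7. Its neighbouring paralogs did not pass the test there: Akr1b8 had 5.64 against 5.74 FPKM and Akr1b10 had 18.7 against 14.7 (limma, adjusted p = 0.938 and 0.585). Reads shared between these near relatives could be split by the counting, so their separation is uncertain.

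Hao2 was low everywhere and its groups touched. The livers labelled Bcl6 KO held 6.96, 10.4, 3.51, 2.56 and 4.12 FPKM. The controls ranged from 0 to 2.77 with a median of 1.35 FPKM, so the highest control lay above the lowest Bcl6 KO liver. The means were 5.51 ± 3.18 (n = 5) and 1.36 ± 1.23 (n = 6), a ratio of 4.05. Livers of other groups came as high, with 9.82 FPKM in Srebf1 KO replicate 4 and 5.12 in Smyd2 KO replicate 5. Hao1, the glycolate oxidase of the same family, fell from 317 ± 46.0 to 178 ± 29.5 FPKM (log2 change -0.83 ± 0.16 SE, limma adjusted p = 0.000543, lower than the control mean in 5 of 5 livers).

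**Figure D1:**
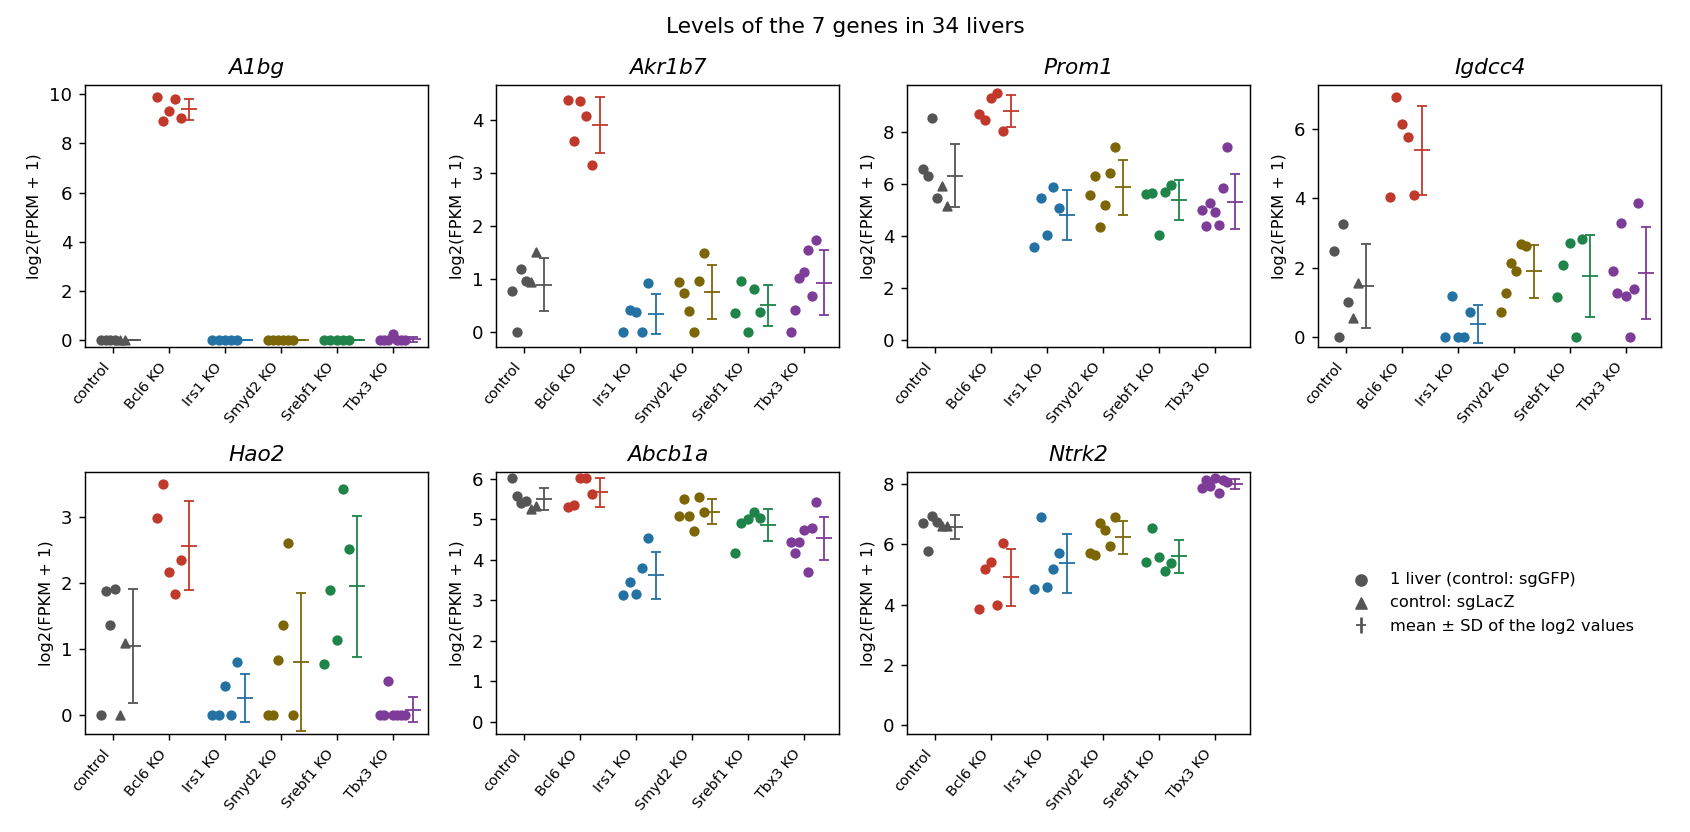
Levels of the 7 genes in 34 livers, with log2(FPKM + 1) on the vertical axis and 1 point per liver by group (n = 6, 5, 5, 6, 5 and 7 from left to right). Crosses and bars give the mean ± SD of the log2 values, and triangles mark sgLacZ livers. A1bg, Akr1b7 and Igdcc4 do not overlap between Bcl6 KO and control, Prom1 and Hao2 are higher on average and overlap, Abcb1a is level, and Ntrk2 is lower in Bcl6 KO and highest in Tbx3 KO.

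Igdcc4 was the most variable member among the livers labelled Bcl6 KO. They held 15.3, 118.5, 69.4, 52.9 and 15.9 FPKM, a wide spread within 1 group. The controls ranged from 0 to 8.47 with a median of 1.48 FPKM, below every one of them. The highest liver elsewhere, Tbx3 KO replicate 7 with 13.4 FPKM, also stayed below. The means were 54.4 ± 42.9 (n = 5) and 2.75 ± 3.24 FPKM (n = 6), a ratio of 19.8. Of the other 29 livers, 19 reached 1 FPKM.

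Prom1 was abundant in the livers labelled Bcl6 KO, with 412.6, 352, 639, 729.5 and 263 FPKM. The sgGFP livers held 95.4, 77.1, 368.6 and 42.5 FPKM and the sgLacZ livers 59.2 and 34.2. One control, sgGFP replicate 3, thus lay inside the range of the Bcl6 group, and the other 5 lay below it. The means were 479 ± 197 (n = 5) and 113 ± 127 FPKM (n = 6), a ratio of 4.25. Outside these groups the highest livers were Tbx3 KO replicate 7 with 171.5 and Smyd2 KO replicate 6 with 169 FPKM.

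Those 3 high libraries were also the 3 highest in Krt19, a keratin of bile duct cells, with 36.2 FPKM in sgGFP replicate 3, 34.1 in Smyd2 KO replicate 6 and 24.0 in Tbx3 KO replicate 7. The livers labelled Bcl6 KO held 3.52 to 11.7 FPKM of Krt19, within the control range of 2.28 to 36.2. Over 10 tested cholangiocyte markers of 12, the mean log2 level relative to all livers was -0.73 to 0.12 in the Bcl6 group and -0.34 to 1.81 in the controls. Their summed levels were 470.4 to 1152 and 736 to 3109 FPKM. In Bcl6 KO, 0 of the 10 rose and 1 fell (Sox9, 28.0 to 9.52 FPKM, limma adjusted p = 0.0209, a call lost without sgGFP replicate 1 or 3 or Bcl6 KO replicate 1 or 4), with a median log2 change of -0.86 against -0.07 over all genes. The part of these markers in the Prom1 values was not tested. Of the 3 libraries only sgGFP replicate 3 enters the difference between Bcl6 KO and control, and leaving out this highest control necessarily raised the described log2 difference of Prom1 (2.93 in place of 2.49). In whole liver, fewer cells of a type and less RNA per cell cannot be told apart.

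**Figure D2:**
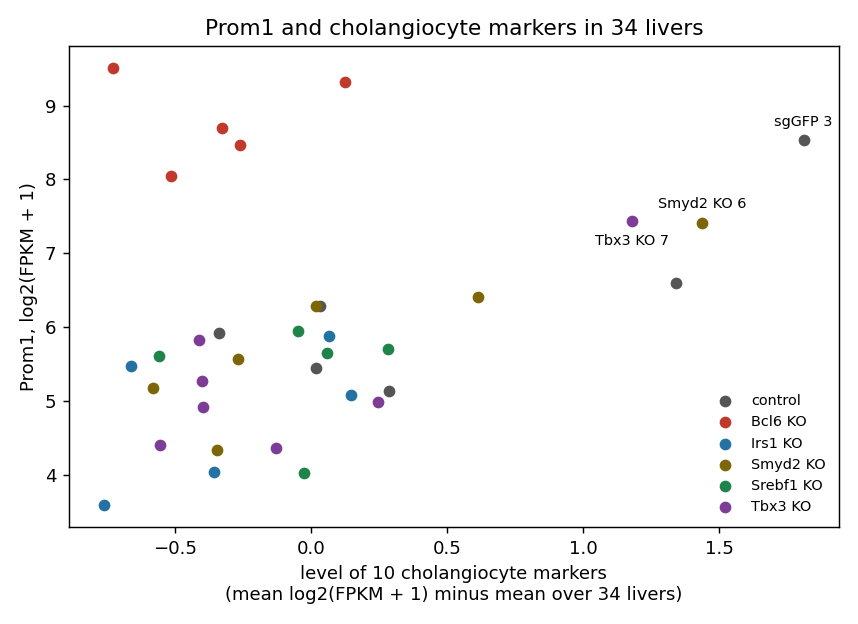
Prom1 (vertical axis, log2(FPKM + 1)) against the level of 10 cholangiocyte markers (horizontal axis, mean log2(FPKM + 1) minus the mean over 34 livers), 1 point per liver, coloured by group. The 3 labelled livers, highest in Krt19, are high on both axes, while the 5 Bcl6 KO livers are high in Prom1 at marker levels from -0.73 to 0.12.

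Abcb1a and Ntrk2 went against the name of the set. Abcb1a had 38.1, 39.9, 63.6, 63.8 and 48.0 FPKM in the livers labelled Bcl6 KO and 36.8 to 63.4 FPKM (median 42.0) in the controls. The 2 ranges nearly coincide, and the means of 50.7 ± 12.5 (n = 5) and 45.0 ± 9.61 FPKM (n = 6) differed by less than the SD of either group. Ntrk2 had 13.5, 35.6, 41.7, 15.0 and 65.3 FPKM in the livers labelled Bcl6 KO against 54.2 to 121.6 FPKM (median 101.3) in the controls. It was lower in all 5 livers than the control mean, with means of 34.2 ± 21.3 and 96.9 ± 22.8 FPKM, a 2.83-fold lower mean, and the groups overlapped in 1 liver on each side. Of the 7 genes, 3 were higher with no overlap (A1bg, Akr1b7 and Igdcc4). Over all 19295 genes tested, 2.35% were higher and 1.92% were lower with no overlap between Bcl6 KO and control. The members were chosen on this contrast, so nothing is read from the count.

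Relatives of the members in the same families or pathways gave a mixed picture in Bcl6 KO. Of 22 listed, 18 were tested, 2 rose and 4 fell (limma), with a median log2 change of -0.19. The number that fell was 3 to 5 with 1 library left out, and 3 to 5 under the other settings. Over all genes 6.14% were called in this comparison. Abcc4, an efflux pump of the basolateral membrane, rose from 26.4 ± 5.72 to 80.3 ± 16.9 FPKM (log2 change 1.57, adjusted p = 0.000491). The related pump Abcc3 fell from 858 ± 104 to 346 ± 140 FPKM (log2 change -1.40, adjusted p = 5.57e-06). Abcb4, the phospholipid flippase of bile, fell from 2306 to 1341 FPKM (log2 change -0.80, adjusted p = 4.2e-06), and Abcg2, another efflux pump, fell from 743 to 509 (adjusted p = 0.0451). Abcb1b, the second P-glycoprotein gene of the mouse, was at 2.30 FPKM against 3.20 in controls (adjusted p = 0.791). Bdnf, the ligand of TrkB, was at 4.90 against 12.3 FPKM (adjusted p = 0.187), and Ntf3 at 3.55 against 8.27 (adjusted p = 0.221). The remaining tested relatives, Abcb11, Abcc2, Neo1, Akr1b3, Akr1b8, Akr1b10, Ntrk3, Ngfr and Sort1, had adjusted p-values from 0.0623 to 0.994.

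Genes known as female-biased in liver were high in the same livers as A1bg. Of 23 such genes, 17 rose and 0 fell in Bcl6 KO (limma), with a median log2 change of 3.79 against -0.07 over all genes. The count was 10 without Bcl6 KO replicate 1 and 11 without replicate 2 or replicate 4. Cyp2c69, a cytochrome P450, was at 434 ± 148 FPKM (n = 5) against 0.804 ± 0.704 in controls (n = 6, adjusted p = 7.02e-23). Cyp3a41b and Sult2a1 were listed at 0 in all controls and averaged 154 and 262 FPKM. Cyp3a41a was at 52.7 FPKM against 0.158. These families hold near-identical copies, so the split between copies is uncertain. Genes near 0 outside the livers labelled Bcl6 KO, such as Cyp3a41b and Sult2a1, can pass the filter on low values through those livers alone. The count of 17 and the median of 3.79 were not freed of such genes and are a description only. Of 21 male-biased genes, 19 were tested, 0 rose and 8 fell, with a median of -1.61, and 5 fell without Bcl6 KO replicate 1 or 4, sgGFP replicate 2 or sgLacZ replicate 1. Among them Mup20, a major urinary protein, had a mean of 1344 FPKM against 12041 in controls. Both lists were drawn up with earlier results of these livers known, so their direction is not independent evidence.

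Of 17 genes of the growth hormone and STAT5 axis, which shares Cux2, Prlr, Trim24 and Tox with the female-biased list, 8 rose and 0 fell in Bcl6 KO, with a median of 0.42, and 5 rose without Bcl6 KO replicate 1. Cux2, a female-biased transcription factor, rose from 5.91 ± 2.60 to 751 ± 285 FPKM (log2 change 6.76, limma adjusted p = 2.11e-11). Prlr, the prolactin receptor, rose from 327 ± 191 to 8471 ± 2749 (adjusted p = 8.64e-12), and Ghr, the growth hormone receptor, from 1153 to 4087 (adjusted p = 8.62e-09). Of 8 BCL6 corepressor genes, Bcor rose (98.9 to 148 FPKM, adjusted p = 0.00328) and Ncor1 fell (7572 to 6067, adjusted p = 0.0328). The fall of Ncor1 was not called under median scaling, with no filter or with no trend, nor without any one of Bcl6 KO replicates 1, 3 and 4, sgGFP replicates 1 and 3 and sgLacZ replicate 1. Across all 34 livers the Y-linked genes Ddx3y, Kdm5d, Uty and Eif2s3y were expressed, Ddx3y at 178 FPKM or more, and Xist did not exceed 2.26 FPKM. Of these 5 sex chromosome genes 0 were called in Bcl6 KO (limma, 0 at an unadjusted p under 0.05).

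Further lists were chosen for the members' own functions and for other cell types. Of 11 tested peroxisomal enzymes, 1 rose and 2 fell in Bcl6 KO: Hacl1 rose from 114 to 344 FPKM (adjusted p = 0.000448), while the fall of Hao1 is given above. Of 9 tested fetal liver genes, 2 rose, namely Peg3 (33.6 to 425.3 FPKM, adjusted p = 1.76e-12) and Afp (6.42 to 13.5, adjusted p = 0.0212), and the list's median was -0.30. Of 17 xenobiotic receptors and targets, 3 rose and 1 fell, with Cyp3a13 at 237 against 142 FPKM (adjusted p = 0.00459). Leaving out Bcl6 KO replicate 1 or 4 gave 1 rise in the xenobiotic list, 1 in the fetal list and 1 fall in the peroxisomal list, and the fetal list also had 1 without Bcl6 KO replicate 2 or sgGFP replicate 1 or 4. Without sgGFP replicate 3 or 4 or Bcl6 KO replicate 3, 2 peroxisomal enzymes rose. Without Bcl6 KO replicate 1, sgGFP replicate 3, Irs1 KO replicate 3 or Tbx3 KO replicate 7, 2 genes of the xenobiotic list fell. Of the hepatocyte markers 7 of 10 rose and 0 fell, led by Alb (45811 to 131469 FPKM, limma adjusted p = 1.84e-09), and their part in the members' values was not tested. Of the endothelial markers 4 of 10 rose, of the stellate and mesenchymal markers 0 rose and 1 of 10 fell (0 to 4 with 1 library left out: 0 without Bcl6 KO replicate 1 or 4, 2 without Bcl6 KO replicate 3 or sgGFP replicate 4, 4 without Tbx3 KO replicate 7), and of the macrophage and lymphocyte markers 0 of 10 were called (3 at an unadjusted p under 0.05). The neural and glial list had 6 tested genes of 8 and 0 calls (1 at an unadjusted p under 0.05). The adrenal list had 2 tested genes of 8, of which Cyp21a1 fell (not without Bcl6 KO replicate 1 or 4 or sgLacZ replicate 1), and 0 of 8 kidney markers passed the filter. Kap and Aqp2 of the kidney list and Mc2r of the adrenal list were listed at 0 in all 34 livers.

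The genes around each member were looked at next. Positions are from RefSeq (GRCm38.p6), and the 2 nearest tested genes on each side of each member were taken, 28 in all. Of these, 26 passed the filter on low values without the livers labelled Bcl6 KO, and of the 26, 2 rose and 1 fell in Bcl6 KO (limma), against 6.14% called over all genes. The other neighbours, Gm38563 and 4930402D18Rik beside A1bg on chromosome 15, were tested only because they are high in Bcl6 KO, so their values are a description and no count rests on them. The filter left out 0 symbols of the table between the outer neighbours of A1bg. Gm38563, 235887 bases away on the side of higher coordinates, had 12.5 FPKM in Bcl6 KO and 0.307 in controls, and at most 0.938 in any of the 29 other livers. 4930402D18Rik, 32034 bases away on the same side, had 6.01 and 0.182 FPKM, and at most 1.09 in the other livers. 9930014A18Rik, 86189 bases away on the other side, rose from 2.39 to 5.43 FPKM (log2 change 0.92, adjusted p = 0.00757), while Gm41331, 730286 bases away, was not called (adjusted p = 0.665). The kit keeps strand, but the strand setting used in counting is unknown, so transcripts running past a gene's end or on the other strand may not be separated.

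Around the other members few tested neighbours changed in Bcl6 KO. Between their outer neighbours the filter left out 14 symbols of the table for Ntrk2 and 5 for Hao2. It left out 2 each for Prom1, Igdcc4 and Akr1b7 and 1 for Abcb1a, and none of these symbols was tested. Agtpbp1, a carboxypeptidase gene 315564 bases from Ntrk2, rose from 313 to 751 FPKM (log2 change 1.24, limma adjusted p = 2.54e-07), while Ntrk2 itself had lower values. Slc25a40, 112252 bases from Abcb1a, fell from 82.5 to 49.0 FPKM (log2 change -0.72, adjusted p = 0.00784). Of the 16 neighbours of Akr1b7, Hao2, Prom1 and Igdcc4, 0 were called by limma there, also at an unadjusted p under 0.05. In Irs1 KO 1 of the 28 rose (Hsd3b3, beside Hao2, log2 change 0.50, adjusted p = 0.034) and 1 fell (Akr1b10, beside Akr1b7, log2 change -1.53, adjusted p = 0.0109). In Tbx3 KO Slc25a40 fell (log2 change -0.57, adjusted p = 0.0448), and in Smyd2 and Srebf1 KO 0 were called (limma, 4 and 1 at an unadjusted p under 0.05).

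**Figure D3:**
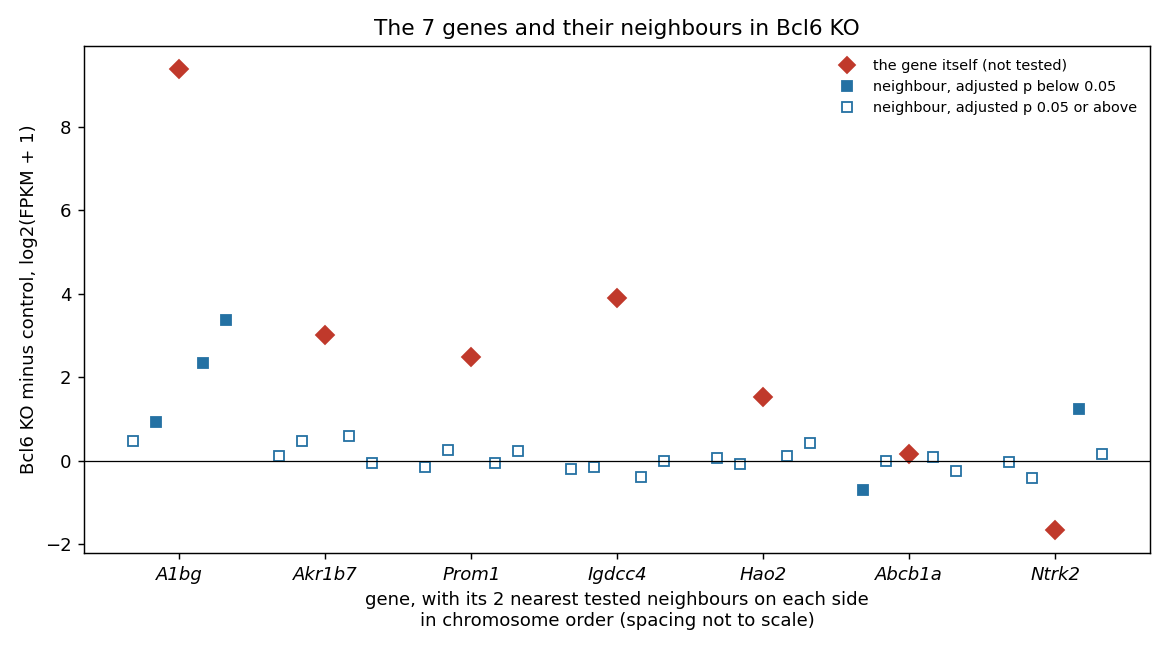
Difference between Bcl6 KO and control (vertical axis, log2(FPKM + 1)) for the 7 genes (red diamonds, not tested) and the 2 nearest tested genes on each side (blue squares, filled where the limma adjusted p is below 0.05), placed in chromosome order without distances. Filled squares stand beside A1bg (3, of which 2 were tested only because they are high in Bcl6 KO), Abcb1a (1, lower) and Ntrk2 (1, higher).

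The other knockouts were then tested against the same control livers, which had also served the choice of the members. The 4 comparisons share these controls. By limma, 2 of the 7 genes were called in Irs1 KO (both lower), 0 in Smyd2 KO, 0 in Srebf1 KO and 2 in Tbx3 KO (1 higher, 1 lower). A1bg, tested only through the livers labelled Bcl6 KO, was at 0 in all controls and could not be called lower. The shares of all genes called were 10.9%, 0%, 0.378% and 2.54%, and by direction 7.61% lower in Irs1 KO, 1.17% higher in Tbx3 KO and 1.37% lower in Tbx3 KO. At an unadjusted p under 0.05 the members numbered 3, 0, 2 and 3. All 4 calls were of Abcb1a and Ntrk2, the members to which the name of the set does not apply.

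Abcb1a was lowest in Irs1 KO, where the livers held 7.76, 9.91, 7.95, 12.9 and 22.2 FPKM against 36.8 to 63.4 in controls. Every Irs1 KO liver lay below every control, a pattern shown by 5.24% of all genes in this comparison. By limma Abcb1a fell by 1.89 ± 0.25 (SE) on the log2 scale (adjusted p = 1.77e-05). In Tbx3 KO the 7 livers ranged from 12.1 to 41.6 FPKM with a median of 20.8, and Abcb1a fell by 0.98 ± 0.23 on the log2 scale (adjusted p = 0.0159, below the control mean in 7 of 7 livers, with overlap). Without sgGFP replicate 1 that call was lost (adjusted p = 0.0602). In Srebf1 KO the livers held 16.8, 29.2, 31.2, 35.1 and 31.7 FPKM, all below the controls, which 1.16% of all genes showed, but the change of -0.64 did not pass the test (limma, adjusted p = 0.27). Leaving out the library labelled Srebf1 KO replicate 1 gave -0.47 (adjusted p = 0.51). In Smyd2 KO the range was 25.3 to 45.9 FPKM (median 33.8, adjusted p = 0.839).

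Cell type markers in Irs1 KO, where 7.61% of all genes were called lower, are given beside Abcb1a. Of the endothelial markers 2 of 10 fell, with summed levels of 614 to 810 FPKM against 741 to 969 in controls ranges that overlap, and a median log2 change of -0.23 against -0.12 over all genes. Of the macrophage and lymphocyte markers 2 of 10 fell (508 to 742 against 772 to 1355 FPKM, median -0.78), and of the stellate and mesenchymal markers 5 of 10 fell (639 to 794 against 880 to 1897 FPKM, median -0.67). Of the hepatocyte markers 6 of 10 rose. In Tbx3 KO, 2 of the 10 stellate and mesenchymal markers fell (7 at an unadjusted p under 0.05; 487 to 1677 FPKM, median -0.71 against -0.06 over all genes) and of the hepatocyte markers 3 rose and 1 fell. Of the endothelial and of the macrophage and lymphocyte markers 0 were called there (limma, 1 and 0 at an unadjusted p under 0.05). The part of these markers in the Abcb1a results was not tested. Abcc4 also fell in Irs1 KO (26.4 to 10.4 FPKM, limma adjusted p = 0.00496) and in Tbx3 KO (to 11.2, adjusted p = 0.00752).

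Ntrk2 was highest in Tbx3 KO. The 7 livers ranged from 206 to 293 FPKM with a median of 266, above every other liver of the series. The log2 change against control was 1.44 ± 0.33 (SE, limma adjusted p = 0.0131, 7 of 7 livers higher, no overlap, as for 0.384% of all genes). In Irs1 KO the livers held 21.8, 118.5, 23.3, 35.4 and 51.2 FPKM. Replicate 2 lay inside the control range and the other 4 lay below it, and the change of -1.19 ± 0.36 passed the test narrowly (adjusted p = 0.0299). That call was lost under median scaling (adjusted p = 0.0565), under quantile normalization (0.0551), without the 3 libraries highest in Krt19 (0.0549), and without sgGFP replicate 1 or 3 or Irs1 KO replicate 1, 3 or 4 (0.0563 to 0.106). In Srebf1 KO the livers held 41.5, 92.3, 47.1, 33.9 and 40.4 FPKM (log2 change -0.96, adjusted p = 0.24), and in Smyd2 KO they ranged from 48.9 to 120.6 (median 74.8, adjusted p = 0.904). In Tbx3 KO, 0 of 6 tested neural and glial markers rose and 1 fell (Syt1), and their summed levels were 55.9 to 155 FPKM against 128 to 239 in controls.

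The other members showed no call against control. A1bg was at 0 in 22 of these 23 livers. Prom1 in Irs1 KO held 11.0, 43.3, 15.3, 57.8 and 32.8 FPKM, all below the control mean, with a log2 change of -1.51 and a 95% interval of -2.66 to -0.36 (limma, adjusted p = 0.08). Igdcc4 in Irs1 KO was listed at 0 in 3 of 5 livers and at most 1.27 FPKM (log2 change -1.09, adjusted p = 0.291). Hao2 in Tbx3 KO was listed at 0 in 6 of 7 livers, with 0.421 FPKM in the other (log2 change -0.97, adjusted p = 0.212). Akr1b7 changed by -0.55 to 0.03 across the 4 knockouts (adjusted p from 0.279 to 0.971). These low values rest on few reads, and the intervals are wide.

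**Figure D4:**
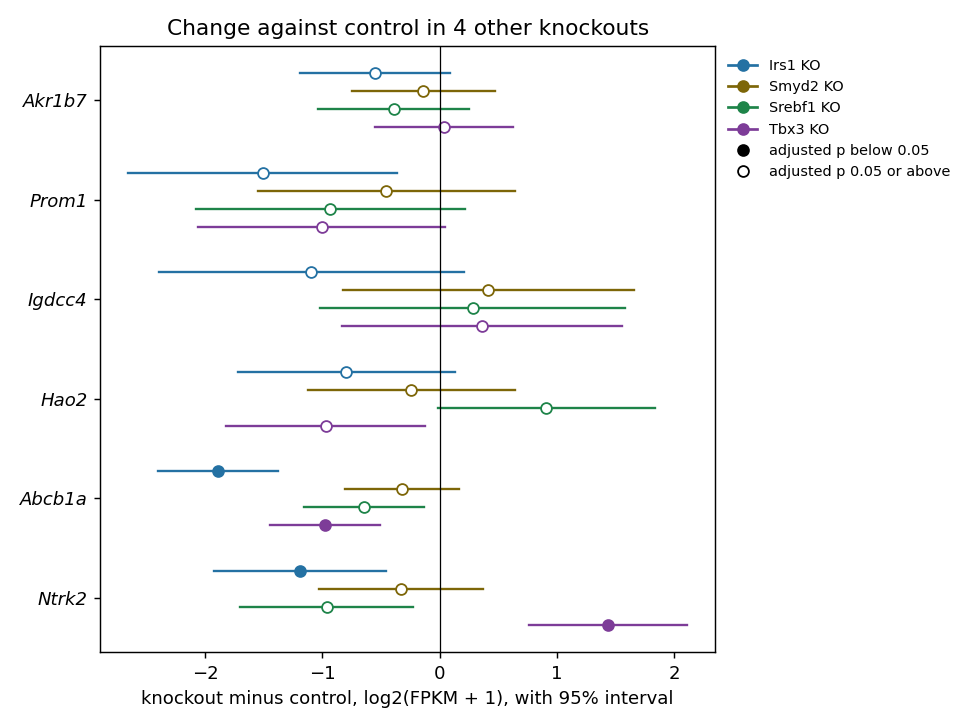
Log2 change against the 6 controls (horizontal axis, log2(FPKM + 1), with 95% intervals from limma) for 6 members in 4 knockouts, coloured by knockout. Filled circles have an adjusted p below 0.05: Abcb1a in Irs1 and Tbx3 KO, and Ntrk2 in Irs1 KO (lower) and Tbx3 KO (higher); A1bg, at 0 in nearly all these livers, is not drawn.

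Comparing the 4 other knockouts with each other uses no liver that chose the members, apart from the shared estimate of the spread. By limma's F test 3 of the 7 members differed among them, against 4.46% of all genes: Ntrk2 (adjusted p = 1.02e-05), Abcb1a (adjusted p = 0.000877) and Hao2 (adjusted p = 0.0317). A1bg was at 0 in 22 of these 23 livers, so the counts here rest on the other 6 members. The call of Hao2 was lost without Irs1 KO replicate 1 or 2 or Srebf1 KO replicate 2, 4 or 5 (adjusted p from 0.0512 to 0.115). Over 6 pairs and 7 members there were 7 calls. Ntrk2 was lower than in Tbx3 KO in Irs1 KO (log2 difference -2.63, adjusted p = 2.88e-05), Srebf1 KO (-2.40, adjusted p = 5.37e-05) and Smyd2 KO (-1.77, adjusted p = 0.00322). The shares of all genes called in these 3 pairs were 2.81%, 0.943% and 0.902%.

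Abcb1a was lower in Irs1 KO than in Smyd2 KO (log2 difference -1.56, limma adjusted p = 0.000752), Srebf1 KO (-1.24, adjusted p = 0.00801) and Tbx3 KO (-0.91, adjusted p = 0.034). The shares of all genes called were 4.26% in the first and 1.6% in the second of these pairs. The pair with Tbx3 KO was lost without Irs1 KO replicate 1, 2 or 3 or Tbx3 KO replicate 1, 4, 6 or 7 (adjusted p from 0.0512 to 0.119), and without the 3 libraries highest in Krt19 (0.0754). Hao2 was higher in Srebf1 KO than in Tbx3 KO. The Tbx3 KO livers were listed at 0 in 6 of 7 and at 0.421 FPKM in the other, values that rest on few reads. The Srebf1 KO livers held 0.706, 2.71, 1.20, 9.82 and 4.72 FPKM, with a log2 difference of 1.88 ± 0.44 (SE, limma adjusted p = 0.0214). Without Srebf1 KO replicate 2, 4 or 5 that call was lost (adjusted p from 0.0517 to 0.127). Without the library labelled Srebf1 KO replicate 1, Hao2 was also called lower in Irs1 KO than in Srebf1 KO (log2 difference -1.998, adjusted p = 0.0229, against 0.0589 with it). Between Smyd2 and Srebf1 KO 0 members were called (limma, 1 at an unadjusted p under 0.05, with 0.0777% of all genes called).

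The order of its group means can be given. For Ntrk2 it ran from Tbx3 KO (258 FPKM) over control (96.9), Smyd2 KO (79.1), Srebf1 KO (51.1) and Irs1 KO (50.03) to Bcl6 KO (34.2). Only the step from Tbx3 KO to the next group exceeds the spread, while neighbours further down overlap. For Abcb1a it ran from Bcl6 KO (50.7) over control (45.0), Smyd2 KO (35.9), Srebf1 KO (28.8) and Tbx3 KO (23.4) to Irs1 KO (12.1), and each group overlapped the next in that order. For Prom1, Bcl6 KO (479) and control (113) were followed by Smyd2 KO (71.8), Tbx3 KO (52.0), Srebf1 KO (44.7) and Irs1 KO (32.1), and the last 5 overlap. For Hao2 it ran from Bcl6 KO (5.51) over Srebf1 KO (3.83), control (1.36), Smyd2 KO (1.24) and Irs1 KO (0.220) to Tbx3 KO (0.0602), and each group overlapped the next. For Igdcc4 the 4 groups other than Bcl6 and Irs1 KO had means of 2.75 to 4.15 FPKM, and Irs1 KO was lowest with 0.382.

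Sex-biased genes also changed in the other knockouts, in part the other way. In Irs1 KO 1 of the 23 female-biased genes rose and 5 fell, while 10 of 19 male-biased genes rose and 0 fell (limma). Over all genes 10.9% were called in Irs1 KO, and 7.61% were called lower. Cyp2a4, a female-biased P450, fell from 49.2 to 3.27 FPKM (adjusted p = 8.96e-05), and Hsd3b5, a male-biased steroid enzyme, rose from 1.22 to 168 FPKM (adjusted p = 5.5e-05). In Tbx3 KO 1 female-biased gene rose, Sult1e1 (104 to 2392 FPKM, adjusted p = 3.43e-05), and 4 fell, among them Cyp2b13, which was listed at 0 in all 7 livers. Over all genes 1.17% were called higher and 1.37% lower in Tbx3 KO. In Smyd2 KO 0 of either list were called (limma, 3 female-biased and 10 male-biased at an unadjusted p under 0.05), and in Srebf1 KO 1 female-biased gene fell (Cyp17a1) and 1 male-biased gene rose (Cyp2u1). The share of all genes called was 0% in Smyd2 KO and 0.378% in Srebf1 KO. A1bg, a female-biased gene by prior knowledge, was at 0 in the controls already, so a fall could not be seen.

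The genes most alike to each member across livers were found by Pearson's r on log2(FPKM + 1) over all genes tested, given as a description. Over 34 livers A1bg was closest to Cyp3a41b (r = 0.9994), Sult2a1 (0.9975) and Cyp3a41a (0.997), all near 0 except in the livers labelled Bcl6 KO, so these values rest on the gap between 2 clusters of livers. Akr1b7 had an r of 0.9194 with Sult4a1 and 0.9192 with A1bg, which rest on the same gap. The 23 livers of the 4 other knockouts leave that gap out. There Prom1 was closest to Pdgfd (0.8911), Slc7a6 (0.8544) and Arl11 (0.8484), in place of Nedd9 (0.9355) over 34 livers. Abcb1a was closest to Uap1l1 (0.9081), Ephb2 (0.8969) and Anxa5 (0.8953). Hao2 was closest to Cyp2b13, a female-biased P450, over both 23 livers (0.8629) and 34 (0.8549). Ntrk2 was closest to Sult1e1, an estrogen sulfotransferase, over 23 livers (0.8608), and to Hsd17b13, a lipid droplet protein, over 34 (0.7753). The 7 Tbx3 KO livers lie above the rest of the 23 in both Ntrk2 and Sult1e1, and over the 16 livers without them r was 0.47. Igdcc4 was closest to Samhd1 (0.8082) and Akr1b7 to Misp (0.8845) over 23 livers. All points share the same libraries and their scaling.

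Among themselves the members were not 1 pattern. Over the 23 livers of the other knockouts r was 0.61 between Prom1 and Abcb1a, 0.61 between Abcb1a and Igdcc4, 0.54 between Prom1 and Akr1b7, 0.46 between Prom1 and Igdcc4 and -0.39 between Hao2 and Ntrk2. With the Bcl6 KO and control livers added (34 livers), A1bg and Akr1b7 reached 0.92 and Prom1 and Akr1b7 0.81; for A1bg, at 0 in nearly all other livers, the value rests on the livers labelled Bcl6 KO.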

How the data were processed

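Per the labels' protocols, TRIzol and RNeasy columns were used to extract liver RNA, and libraries came from a stranded total RNA kit (SMARTer). The authors deposited 1 table of FPKM by gene symbol. Per the submitters' processing notes, featureCounts 1.6.4 was used, and mm10 and GRCh38 are named without a role. The aligner, annotation, strand setting and handling of several transcripts per gene were not given in the sources used here.

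The 34 columns were matched to livers by title or description. With limma 3.58.1 in R 4.3.3, log2(FPKM + 1) of the 19295 genes at 1 or more FPKM in at least 5 libraries was fitted with 6 levels (5 knockouts and the pooled control, eBayes with a trend). P-values are two-sided, Benjamini-Hochberg adjusted over the 19295 genes, and called below 0.05. Log2 changes are on this scale and understate those of low genes. The script was tested on simulated data. All 7 members were tested, and 6 passed the filter also without the Bcl6 KO livers. No 2 libraries were identical (highest Pearson r 0.9835). Depth was inferred from the FPKM steps of low genes with 1 annotated transcript, and positions come from GENCODE M21 and RefSeq, of which 92.4% of tested genes had a position. Read numbers and the 3-read limit cover counting error only.

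The members, lists and tests were chosen with earlier results of these data known, and the sex chromosome genes were added after values were seen. Named are the members, the targeted genes, up to 4 genes per list by smallest adjusted p in Bcl6 KO and up to 2 in other knockouts, tested relatives, the 3 genes most alike to a member and nearest neighbours; some genes that the rule covers are left out of the text. Named outside that rule, after their values were seen, are cell type markers and sex chromosome genes. For A1bg no likeness is given over 23 livers, since 1 of them was above 0. Alternatives were another pseudocount (0.1), no filter, a filter at 5 FPKM, median scaling, quantile normalization, sgGFP alone as control, a fit without Bcl6 KO livers, the replicate block, no trend, each library left out, and, chosen after seeing the data, the 3 libraries highest in Krt19 left out.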

Additional observations from a re-analysis of the deposited data

Results flagged for a closer look

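In 5 of 38 sets of a member and a group of 4 to 10 livers, 1 liver lay far from the others on the log2 scale by Dixon's ratio. For normally distributed values chance gives about 1 in 20 such cases. That rate does not hold for A1bg and Hao2 below, where any value above 0 is flagged because the others are at 0. A1bg had 0.20 FPKM in Tbx3 KO replicate 4, about 1 read, where the other 6 livers of the group were at 0. Hao2 had 0.421 FPKM in Tbx3 KO replicate 3, where the other 6 were at 0. Prom1 was 15.2 FPKM in Srebf1 KO replicate 3, below the 47.6 to 60.7 FPKM of the other livers. Abcb1a was 16.8 FPKM in the library labelled Srebf1 KO replicate 1, below the 29.2 to 35.1 FPKM of the others; this is also the library whose Srebf1 mRNA was 1908 FPKM. Ntrk2 was 54.2 FPKM in control sgGFP replicate 2, below the other controls, and the described log2 difference of Ntrk2 between Bcl6 KO and control kept its sign without any single library (-1.95 to -1.41).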

How the results depend on the processing

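No result for the members reversed under any alternative run. The number of members called in Irs1 KO against control was 2, and it was 1 under median scaling, 1 under quantile normalization and 1 without the 3 libraries highest in Krt19, because the call of Ntrk2 was lost. Leaving out 1 library at a time gave 1 to 3 calls in Irs1 KO and 1 to 2 in Tbx3 KO (1 without sgGFP replicate 1). The median log2 change over all genes in Irs1 KO was -0.12, and 0.03 under median scaling.

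The replicate numbers do not pair the livers: deviations of same-numbered livers had a median correlation of -0.0024 (81 pairs). With the replicate number as a block, Prom1 was called lower in Irs1 KO (-1.56, adjusted p = 0.0467) and Tbx3 KO (-1.66, adjusted p = 0.0378), Hao2 between Irs1 and Srebf1 KO (adjusted p = 0.0455) and Abcb1a between Smyd2 and Tbx3 KO (adjusted p = 0.0456). The call of Abcb1a between Irs1 and Tbx3 KO was lost under the block (adjusted p = 0.135). With sgGFP livers alone as control, Prom1 was called in Irs1 KO (adjusted p = 0.0467) and Ntrk2 was not (0.0659).

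Genes called over the whole table in Tbx3 KO numbered 490, 1931 with the block and 1191 without the 3 libraries. In Srebf1 KO they numbered 73, 133 with the block, 152 with sgGFP alone and 44 without the trend, and in Smyd2 KO 0 and, with sgGFP alone, 12. A filter at 5 FPKM left 6 members tested. A pseudocount of 0.1 moved the described log2 difference in Bcl6 KO from 9.38 to 12.7 for A1bg, from 3.01 to 4.17 for Akr1b7 and from 1.53 to 2.74 for Hao2. The causes of these shifts were not tested. Number 7 occurs only in Tbx3 KO, so the block fits Tbx3 KO replicate 7 exactly and in effect leaves it out. That liver is also among the 3 libraries highest in Krt19. Depth limits what can be said of A1bg, Akr1b7, Hao2 and Igdcc4 outside Bcl6 KO, where many livers are at 0.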
